A study of Mus musculus with 2 samples.

Results

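The calcium release channels of the endoplasmic reticulum (ER) were examined in the cortex of P4H-TM KO mice and WT mice. The ryanodine receptor genes Ryr1, Ryr2 and Ryr3 and the inositol trisphosphate (IP3) receptor genes Itpr1, Itpr2 and Itpr3 were chosen by symbol, and every probe set annotated to exactly 1 of these symbols was used. This gave 14 probe sets for 5 of the 6 genes, out of 34945 such probe sets for 18193 genes on the array. Itpr1 was not analysed here. The P4H-TM KO group carried a knockout of P4htm, the gene of the transmembrane prolyl 4-hydroxylase, an enzyme of the ER membrane, and the WT group consisted of wild-type littermates. All mice were naive C57BL/6J males aged 2.5 months. RNA of 4 mice was pooled per genotype and hybridized to 1 Affymetrix Mouse Genome array each, so the study holds 2 arrays in all. Without replicate arrays the differences could not be tested, and neither p-values nor errors between animals are given.

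Ryanodine receptors and IP3 receptors are large tetrameric channels that let calcium out of the ER into the cytosol. IP3 receptors open when a receptor at the cell surface activates phospholipase C, which makes IP3, whereas ryanodine receptors are opened by calcium itself or, in skeletal muscle, by contact with the voltage sensor of the plasma membrane. Both families amplify calcium signals in neurons, and in astrocytes IP3 receptors carry much of the release that follows stimulation by ATP or glutamate. The arrays were made to learn what P4H-TM does in the brain, and calcium signaling was one of the pathways taken from them.

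On their brightest probe sets, none of the 5 measured genes differed by 1.5-fold between the genotypes, and none by 1.2-fold. Of all 18193 genes, 0.61% were higher and 0.148% lower in P4H-TM KO by 1.5-fold or more, and 4.12% and 4.91% passed 1.2-fold upward and downward. The log2 differences of P4H-TM KO minus WT were −0.23 for Ryr1, −0.05 for Ryr2, −0.03 for Ryr3, −0.15 for Itpr2 and 0.09 for Itpr3, with a median of −0.05 against a median of 0 over all genes. Hence 4 of 5 genes had a lower value in P4H-TM KO, where 49% of all genes did. In bulk tissue, fewer cells of a type and less RNA per cell cannot be told apart.

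P4htm, the targeted gene, read 9.10 in P4H-TM KO and 11.05 in WT on its brighter probe set, a log2 difference of −1.95, and 8.07 in P4H-TM KO and 9.71 in WT on the other. Both probe sets were thus lower in the array labelled P4H-TM KO. Whether both target sequence outside the disrupted region is not known here, so the signal that remained in P4H-TM KO was not interpreted. None of the 6 release channel genes lies on chromosome 9, which holds P4htm. The median signal over the whole array, 6.385, was used below as the limit for a sufficient signal. It was reached by 8 of the 9 measured markers of cortical excitatory neurons, so the defining markers of the labelled tissue were present, but also by 11730 of the 18193 genes, by 9 of 9 hippocampus, 10 of 10 meninges and 8 of 9 choroid plexus markers, so the count does not single out cortex. The pooled SD of the log2 difference between probe sets of 1 gene was 0.147 over the 9010 genes with several probe sets, and 0.101 among probe sets with sufficient signal. It is a property of these 2 arrays and says nothing of how animals vary.

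**Figure D1:**
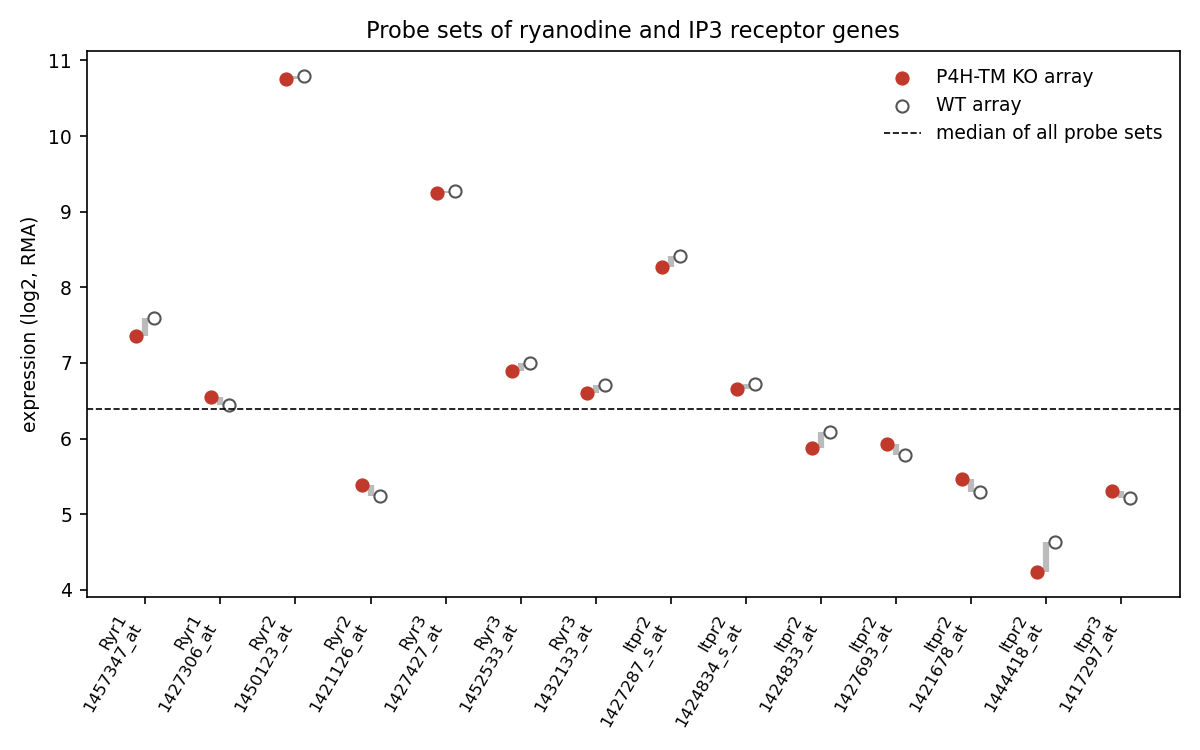
Log2 expression of every probe set of the ryanodine and IP3 receptor genes (horizontal axis, gene and probe set) in the P4H-TM KO array (red points) and the WT array (open circles), with a grey bar joining the 2 values and a dashed line at the median of all probe sets, 6.385. Error bars are missing because each genotype has 1 array; the widest gap, 4.23 in P4H-TM KO and 4.63 in WT, belongs to the dimmest Itpr2 probe set.

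Ryr1 encodes the channel of skeletal muscle, where it couples excitation to contraction, and is also expressed in neurons. Its brighter probe set (1457347_at) read 7.36 in P4H-TM KO and 7.59 in WT. Its other probe set (1427306_at) read 6.55 in P4H-TM KO and 6.45 in WT, so that the 2 probe sets of Ryr1 pointed in opposite directions, with differences of −0.23 and 0.10, and their mean was −0.065. Of the 4369 probe sets within 0.5 log2 units of the signal of the brighter one, 12.5% differed at least as far in either direction. Among the 4695 genes with 2 probe sets, the median gap between the differences of both was 0.12, and 11.3% had a gap at least as wide as the 0.33 of Ryr1.

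Ryr2 encodes the channel of heart muscle and is a major ryanodine receptor of the brain. The brighter Ryr2 probe set (1450123_at) read 10.75 in P4H-TM KO and 10.80 in WT, and the other (1421126_at), below the signal limit, read 5.38 in P4H-TM KO and 5.24 in WT. The differences of −0.05 and 0.14 averaged 0.045, so the direction for Ryr2 depended on the probe set. At the signal of the brighter one, 56.4% of probe sets differed at least as far.

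Ryr3 is a ryanodine receptor with broad and mostly low expression that includes the brain. Of the 4 release channel genes with several probe sets, it was the only one whose differences all had 1 sign. Over all genes, both signs occurred in 39.9% of those with 2 probe sets, 63.1% with 3 and 88.1% with 6. The values were 9.25 in P4H-TM KO and 9.28 in WT (1427427_at), 6.90 in P4H-TM KO and 7.00 in WT (1452533_at), and 6.60 in P4H-TM KO and 6.71 in WT (1432133_at). All were lower in P4H-TM KO, by 0.03 to 0.11 log2 units, and 88.5% of the 2366 genes with 3 probe sets spread at least as widely as Ryr3. The largest of these differences, −0.11, was reached or passed in size by 50.9% of probe sets of similar signal.

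Itpr2 encodes the IP3 receptor that prevails in astrocytes, and it had the most probe sets of the family. The brightest (1427287_s_at) read 8.27 in P4H-TM KO and 8.42 in WT, and the second with sufficient signal (1424834_s_at) read 6.66 in P4H-TM KO and 6.72 in WT. The suffix of both marks probe sets that can match several transcripts. The 4 Itpr2 probe sets below the limit split evenly. A pair of them was lower, at 5.87 in P4H-TM KO and 6.09 in WT (1424833_at) and at 4.23 in P4H-TM KO and 4.63 in WT (1444418_at). The remaining pair was higher, at 5.93 in P4H-TM KO and 5.78 in WT (1427693_at) and at 5.46 in P4H-TM KO and 5.30 in WT (1421678_at). The differences thus ran from −0.40 to 0.16, a width of 0.56, where the median width of the 244 genes with 6 probe sets was 0.32 and 9.43% were at least as wide as Itpr2. Itpr2 had a mean difference of −0.087 over its probe sets. The difference of −0.15 on the brightest probe set was reached or passed in size by 21.5% of probe sets of similar signal, and that of −0.40 on the dimmest by 5.91%.

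Itpr3 encodes an IP3 receptor best known from secretory epithelia and taste cells. Its single probe set (1417297_at) read 5.31 in P4H-TM KO and 5.22 in WT, below the signal limit on both arrays. Of probe sets with similar signal, 65.4% differed by at least this 0.09.

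**Figure D2:**
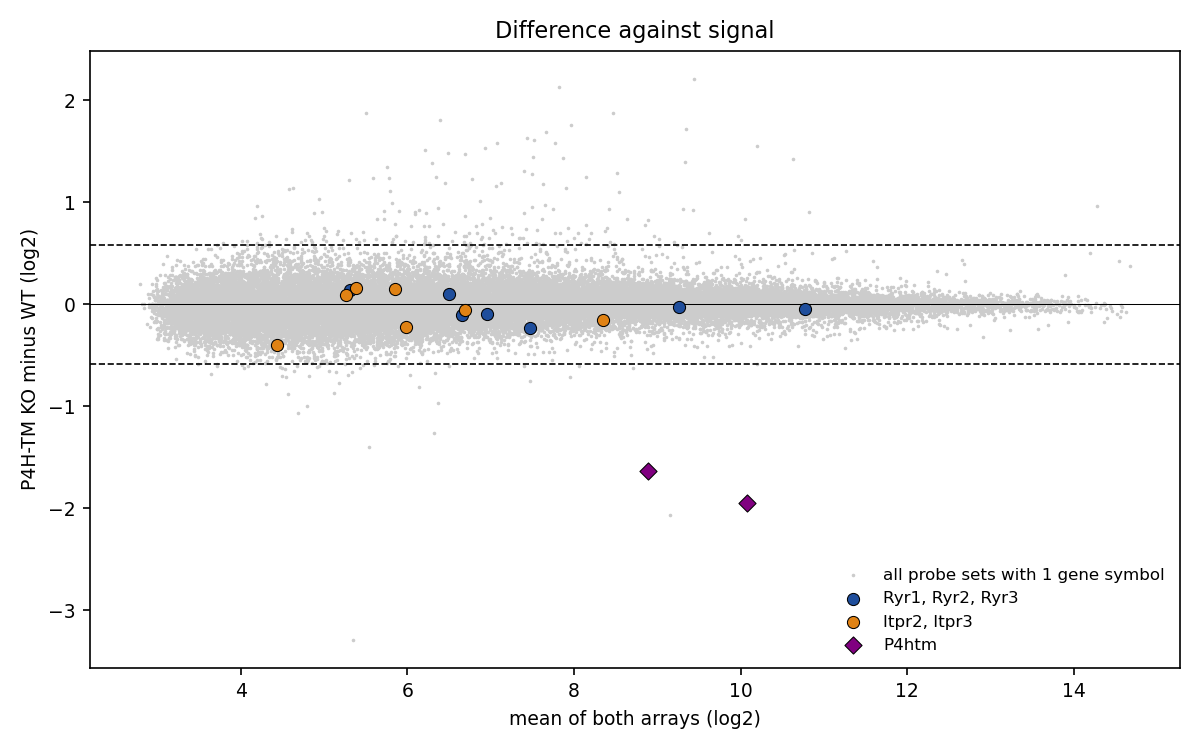
Log2 difference of P4H-TM KO minus WT (vertical axis) against the mean log2 signal of both arrays (horizontal axis) for all 34945 probe sets with 1 gene symbol (grey), those of Ryr1 to Ryr3 (blue), those of Itpr2 and Itpr3 (orange) and those of P4htm (purple diamonds); dashed lines mark 1.5-fold. The 14 release channel probe sets lie between −0.40 and 0.16, inside the dashed lines, and those of P4htm at −1.64 and −1.95.

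Counted by probe set, 9 of 14 were lower and 5 higher in P4H-TM KO, and 1, the dimmest one of Itpr2, was at least 1.2-fold lower, where 48.2% of all probe sets were lower and 5.18% at least 1.2-fold lower. Of 8 with sufficient signal, which belong to Ryr1, Ryr2, Ryr3 and Itpr2, 7 were lower in P4H-TM KO with a median of −0.08, while 44.4% of all such probe sets were lower and their median was 0.01. Of 6 dim ones, 4 were higher with a median of 0.115, while 41.1% of all dim probe sets were higher. Probe sets of 1 gene read the same pool of RNA and are not separate samples. Among the 8 probe sets with sufficient signal, 3 differed by more than the pooled SD between probe sets of 0.101, as did 32.7% of all such probe sets. Of all 14, 6 differed by more than the SD of 0.147 over all signals, as did 29.9% of all probe sets. By family, 5 of 7 ryanodine receptor probe sets were lower, with a median of −0.05 and a range of −0.23 to 0.14. Of 7 IP3 receptor probe sets, 4 were lower, with a median of −0.06 and a range of −0.40 to 0.16. These 7 comprise 6 of Itpr2 and 1 of Itpr3, without Itpr1, and 5 of them were below the signal limit. Because probe sets differ in how well they hybridize, the levels of different genes were not ranked.

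The genes that surround these channels were counted in lists drawn up by role. Over all genes, 49% had a lower value in P4H-TM KO, and 4.12% and 4.91% passed 1.2-fold upward and downward. In the list of channel-bound regulators, which holds proteins that bind the channels, sit beside them in the ER lumen or hold the ER to the plasma membrane, 19 of 34 measured genes had a higher and 14 a lower value in P4H-TM KO, and the median log2 difference was 0.025. At 1.2-fold, 1 was higher and 2 lower, and none passed 1.5-fold. Calr, which encodes the luminal calcium buffer calreticulin, read 12.52 in P4H-TM KO and 12.19 in WT, the highest difference on this list with 0.33, and its 3 probe sets were all higher, from 0.24 to 0.33. Bcl2, whose protein binds IP3 receptors and restrains their opening, read 8.63 in P4H-TM KO and 8.37 in WT, with 0.10 to 0.33 over its 5 probe sets. The lowest with sufficient signal were Homer3, a scaffold that ties IP3 receptors to metabotropic glutamate receptors, with 7.29 in P4H-TM KO and 7.58 in WT on its single probe set, and Grina, an ER membrane protein of the family of Bax inhibitor 1, with 12.02 in P4H-TM KO and 12.23 in WT but a difference of 0.04 on its other probe set.

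Genes that bind ryanodine and IP3 receptors more directly were picked out after their values were seen. The FK506-binding proteins that stabilize the closed channel differed little, with −0.07 for Fkbp1a and −0.08 for Fkbp1b. Ahcyl1, which encodes IRBIT, a protein that competes with IP3 for its site, differed by −0.03, and Car8, which encodes a carbonic anhydrase-related inhibitor of IP3 binding, by 0.20 on its brightest probe set and down to −0.05 on another. Homer1 differed by 0.01 on its brightest probe set, but its 6 probe sets ran from −0.55 to 0.35.

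Of the genes for IP3 synthesis and turnover, 10 of 26 had a higher and 16 a lower value, where 49% of all genes were lower. Their median was −0.03 but their mean 0.0023, of opposite sign, and at 1.2-fold 2 were higher and 0 lower. Plcd3 and Plch1, which encode phospholipase C isoforms, were these 2. Plcd3 read 6.96 in P4H-TM KO and 6.61 in WT, and Plch1 read 7.23 in P4H-TM KO and 6.96 in WT, each on a single probe set. Plcb4 and Plcg2, which encode other phospholipase C isoforms, had the lowest differences with sufficient signal, −0.18 and −0.14, and the probe sets of Plcb4 ran up to 0.30. Gnaq and Gna11, the G protein alpha subunits that activate phospholipase C beta, differed by −0.07 and −0.02, and the IP3 3-kinase genes Itpka, Itpkb and Itpkc by −0.07, 0.12 and −0.05, values named after they were seen.

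**Figure D3:**
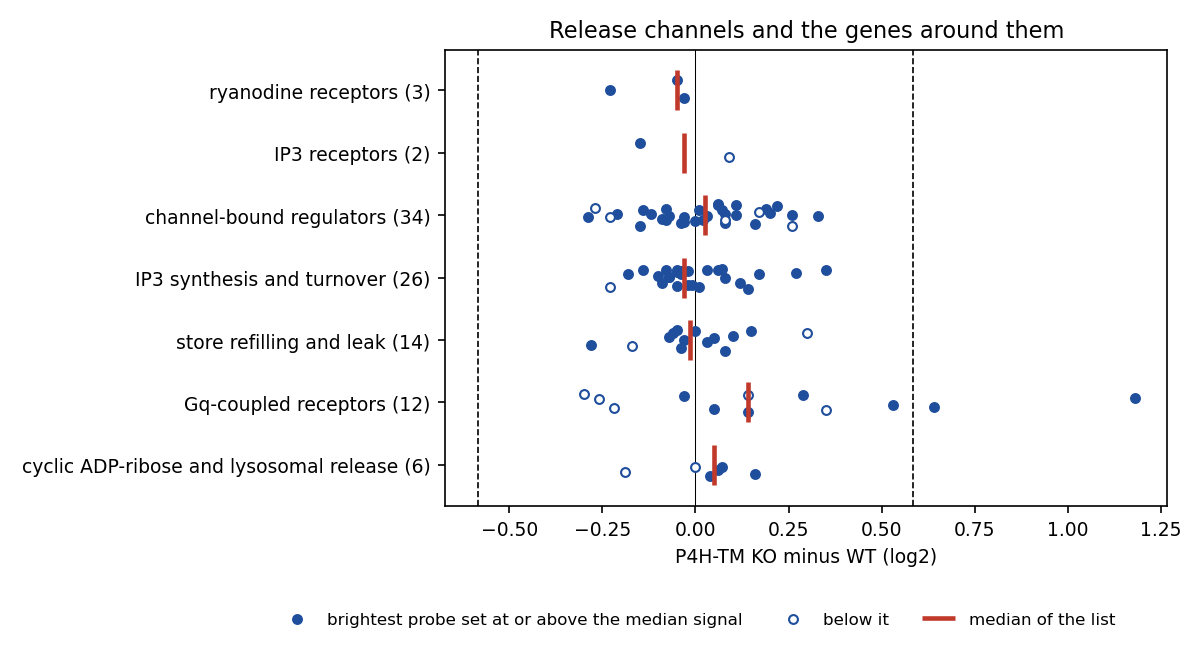
Log2 difference of P4H-TM KO minus WT (horizontal axis) for each measured gene of the lists named on the left, with the number of genes in parentheses; filled points have sufficient signal (6.385 or more), open points do not, red bars are list medians and dashed lines mark 1.5-fold. The medians lie between −0.05 and 0.14, and the 2 points beyond 1.5-fold are Oxtr and Trhr.

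Store refilling and leak covers ER calcium pumps and their inhibitors, the STIM sensors and ORAI channels and the translocon. In this list, 6 of 14 genes were higher and 7 lower in P4H-TM KO, where 49% of all genes were lower. The median of the list was −0.015, with 1 gene past 1.2-fold in each direction. Sec61a2, a translocon subunit, read 9.34 in P4H-TM KO and 9.19 in WT, and Tmco1, a calcium leak channel, read 11.03 in P4H-TM KO and 10.93 in WT. Sln, which encodes the pump inhibitor sarcolipin, had the lowest difference, with 7.15 in P4H-TM KO and 7.43 in WT, and was at least 1.2-fold lower. Sec61a1 differed by −0.07, with −0.18 to 0.09 over its probe sets.

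The receptors that signal through Gq to phospholipase C and IP3 had a median of 0.14. Of the 12 measured genes, 8 were higher, 5 of them by at least 1.2-fold. The other 4 were lower, 1 of them by 1.2-fold. Of all genes on the array, 49% were lower, 4.12% at least 1.2-fold higher and 4.91% at least 1.2-fold lower. Among the 7 listed receptors with sufficient signal the median was 0.29. Trhr, a receptor for the peptide that releases thyrotropin, and Oxtr, the oxytocin receptor gene, were higher by 1.5-fold or more. Trhr read 8.22 in P4H-TM KO and 7.04 in WT, and Oxtr read 7.20 in P4H-TM KO and 6.56 in WT. Their dimmer probe sets differed by −0.14 and 0.03. At the lower end with sufficient signal, Chrm1, a muscarinic receptor, differed by −0.03 and Grm5, a metabotropic glutamate receptor, by 0.05. Trhr, Oxtr, Htr2c, Htr2b and Hrh1 are among the genes that the study selected on these same arrays, so this count is not independent evidence of a direction. In the list for release through cyclic ADP-ribose and lysosomal channels, 4 of 6 genes were higher and 1 lower, where 49% of all genes were lower. The median of this list was 0.05, and none of its genes passed 1.2-fold. Jpt2, an NAADP-binding protein, and Lsm12, another, differed by 0.16 and 0.07, and the lysosomal channel genes Tpcn1 and Mcoln1 by 0.06 and 0.04, with negative values on other probe sets of both.

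Markers of other cells differed between the arrays, and their counts stand beside the 49% of all genes that were lower in P4H-TM KO. All 9 measured choroid plexus markers were higher in P4H-TM KO, by 0.37 to 2.21 with a median of 1.63, and their levels ran from 6.84 to 14.86 in P4H-TM KO and from 5.90 to 14.49 in WT. All 10 meninges markers were higher, with a median of 0.395 and levels of 6.52 to 11.27 in P4H-TM KO and 6.42 to 10.37 in WT. All 9 oligodendrocyte markers were lower, with a median of −0.29 and levels of 10.06 to 14.59 in P4H-TM KO and 10.39 to 14.67 in WT. Hippocampus markers were lower in 7 of 9 genes, with a median of −0.17 and levels of 6.92 to 10.35 in P4H-TM KO and 7.22 to 10.57 in WT. Astrocyte markers, which bear on Itpr2, had a median of −0.045, with 7 of 10 lower and levels of 8.58 to 14.16 in P4H-TM KO and 8.64 to 14.17 in WT. Cortical excitatory neuron markers had a median of 0.05, with 6 of 9 higher, and cortical interneuron markers −0.03, with 6 of 10 lower. Medians were 0.1 for mural and smooth muscle cells, 0.01 for endothelial cells and −0.02 for microglia. Of 10 mural and smooth muscle markers, 7 were higher, 3 of them by at least 1.2-fold, as were 4.12% of all genes. Medians were −0.015 for ependymal and ciliated cells, −0.08 for striatum and −0.135 for cerebellum. At least 1.2-fold lower were 3 of 10 ependymal, 2 of 8 striatum and 4 of 10 cerebellum markers, and 4.91% of all genes. Skeletal muscle markers, which bear on Ryr1, had a median of −0.095, with 7 of 10 lower. Only 2 of them, Acta1 and Pvalb, had sufficient signal. Pvalb is also on the lists of cortical interneuron and cerebellum markers, so its signal cannot be assigned to muscle. The part of these cells in the release channel values and in those of the pathway lists was not tested.

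P4H-TM is related to the prolyl hydroxylases that mark the alpha subunits of hypoxia-inducible factor (HIF) for degradation, and HIF binds DNA at the core motif ACGTG or GCGTG. The promoter windows of RefSeq (GRCm38.p6), which run from 250 bases before to 50 after a gene's start, were therefore searched on both strands. Windows were found for Ryr1, Ryr2, Itpr2 and Itpr3. ACGTG occurred in 19.6% of all 32851 windows and either form in 43.8%. One stretch of each gene with a match is shown, on the strand of the gene, because these letters are what the search rests on, with the motif or its reverse complement in capitals. In Itpr3 the match CACGTG is a palindrome, which reads ACGTG on both strands, and in Itpr2 the pair GCGTG and CACGC faces each other.
Ryr2, chr13:12107173-12107195, minus strand: cgatcaCACGTagaggctcccca
Itpr3, chr17:27057207-27057236, plus strand: ggggcgcgggtgCACGTGggagccgcggcg
Itpr2, chr6:146502326-146502356, minus strand: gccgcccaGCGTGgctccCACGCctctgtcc
The first capital lies 244 bases before the start in Ryr2, 85 in Itpr3 and 125 in Itpr2. Counted on both strands, overlaps included, the whole window held 0 matches in Ryr1, with a difference of −0.23 on its brighter probe set, 2 in Ryr2 with −0.05, 3 in Itpr2 with −0.15 and 4 in Itpr3 with 0.09. These are matches of letters only, and the arrays measure no binding.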

How the data were processed

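Cortical RNA of 4 mice was pooled per genotype and measured on 1 Affymetrix Mouse Genome 430_2.0 array each. The authors used the GeneChip Operating System for the scanned intensities and GenePattern for normalization. The submitters' processing notes name RMA, whose version is not given in the sources used here. The deposited log2 values are rounded to 2 decimals and run from 2.69 to 14.91, with medians of 6.39 in P4H-TM KO and 6.38 in WT. Such normalization assumes that most genes do not differ, and with values near the rounding step small differences are coarse.

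Probe sets were named through the platform annotation. Of 45101, 64 are controls, 932 carry several symbols and 9160 are unnamed here. Symbols were updated by gene identifier to RefSeq (GRCm38.p6), which matched 34741 of 34945 probe sets. A gene took its probe set with the highest mean. Text names the 6 members, P4htm, and in each of 5 pathway lists the 2 highest and 2 lowest genes with sufficient signal and any changed 1.5-fold there; others are marked as named after their values were seen, and the receptors credited to the study's own selection and the marker genes Acta1 and Pvalb were also named outside this rule. Members and lists were chosen with earlier results of these data known. The number of arrays limits the precision. With 1 array per genotype, no test was made. The calculations were tested on simulated data. The differences planted there were larger than any release channel difference, so differences as small as those were not covered. Alternatives comprised averaged or unambiguous probe sets, a signal limit, centring, removal of the intensity trend (lowess, span 0.3) and means of lists. Scripts ran in Python 3.11.15 with pandas 2.3.3, numpy 2.4.6, matplotlib 3.10.9 and statsmodels 0.14.6.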

Additional observations from a re-analysis of the deposited data

How the results depend on the processing

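No paired analysis was possible because there is 1 array per genotype. The counts of release channel genes past 1.2-fold and 1.5-fold stayed at 0 in both directions under all 6 alternatives. The difference of Ryr1, −0.23, was −0.065 with its probe sets averaged, also when only those with sufficient signal were averaged, since both passed the limit. The median of the Gq-coupled receptors, 0.14, was 0.29 among genes with sufficient signal and 0.29 with the mean over such probe sets, settings that leave fewer genes. The other 93 of 97 alternative values, the counts among them, moved by less than the pooled SD between probe sets, 0.147. That SD exceeds the size of the Ryr2, Ryr3 and Itpr3 differences and of the family and pathway list medians. Staying within it therefore says little of their stability. Centring had a shift of 0 and changed nothing. Some family and list medians changed sign within that SD. With probe sets averaged, the cyclic ADP-ribose list went from 0.05 to −0.01 and the IP3 receptor genes from −0.03 to 0.0017. Store refilling and leak went from −0.015 to 0.01 with the mean over probe sets with sufficient signal. With means in place of medians, that list gave 0.00071, and IP3 synthesis and turnover went from −0.03 to 0.0023. Ryr2 turned from −0.05 to 0.045 with probe sets averaged, within that SD, and the differences of Ryr3 and Itpr2 ranged from −0.08 to −0.03 and from −0.22 to −0.087. Itpr3 has no value with the signal limit.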

Other observations

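The proteins that accompany Ryr1 in muscle were looked at after their values were seen, and no test was made. Casq1 and Casq2, which encode the luminal calcium buffers calsequestrin of skeletal and heart muscle, read 6.02 and 6.17 in P4H-TM KO, against 6.25 and 6.44 in WT, below the signal limit except Casq2 in WT. Atp2a1, the calcium pump of fast skeletal muscle, read 5.73 in P4H-TM KO and 5.90 in WT, also below that limit, and Jph1, a junctophilin that holds the ER to the plasma membrane, read 9.70 in P4H-TM KO and 9.84 in WT. Trdn, which encodes the ryanodine receptor anchor triadin, and Cacna1s, the voltage sensor that opens Ryr1 in skeletal muscle, lay below the signal limit, with 5.07 in P4H-TM KO and 4.90 in WT for Trdn and 4.63 in P4H-TM KO and 4.31 in WT for Cacna1s. The 6 probe sets of Trdn differed by −0.17 to 0.29, so its direction depended on the probe set. Phospholamban, encoded by Pln, an inhibitor of ER calcium pumps, was higher on all 3 of its probe sets, by 0.25 to 0.33, at a signal below the limit (5.86 in P4H-TM KO and 5.56 in WT on the brightest), whereas sarcolipin, encoded by Sln, was lower on both of its probe sets, by 0.09 and 0.28. Pln is among the genes the study selected on these arrays.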
